A study of Drosophila melanogaster with 4 samples.

Results

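This account describes the H1-enriched regions of the centromere-near stretch of chromosome arm 3R, an autosomal arm of Drosophila melanogaster. The stretch, called proximal 3R here, runs from 1 to 14 Mb on Release 5 of the genome, where the centromere lies at the low end of the arm. Regions were taken as members by the position of their start alone, so neither their score nor their length entered the choice. Proximal 3R held 495 of the 3779 regions of replicate 1, 559 of the 4665 of replicate 2 and 2163 of the 18812 of a combined list of the series. These are 13.1%, 12.0% and 11.5% of the lists, over 9.30% of the sequence with regions in any list.

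Histone H1 was mapped by ChIP-seq, in which DNA bound to a protein is recovered with an antibody and sequenced. The animals were third-instar larvae of the wild-type strain Oregon-R (Oregon-R-modENCODE). The 4 samples of the series were 2 H1 ChIP samples and 2 input samples, and only regions of the ChIP samples and of the combined list are reported, since the input samples were not analysed here. All samples carried the same wild-type genotype and the labels name no tissue and no treatment, so signal from different cell types is not separated. Nothing in the labels ties the replicates to separate cultures, and their spread may be technical. The read depth is unknown from these lists.

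H1 is the linker histone. It binds the nucleosome where DNA enters and leaves it, helps chromatin fold into a compact state, and is known to be depleted at the promoters of active genes. In fly larvae H1 is needed for the normal banded structure of the giant polytene chromosomes and for the silencing of transposons. Proximal 3R is mainly euchromatin and carries both homeotic gene clusters of the fly, the Antennapedia and the bithorax complexes, whose genes set the identity of body segments.

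Called H1 regions covered a small share of proximal 3R in each replicate and a much larger share in the combined list. Replicate 1 covered 0.841 Mb of the 13 Mb, which is 6.47%, and replicate 2 covered 0.978 Mb, or 7.53%, a mean of 7.00 ± 0.75% (SD, n = 2). The combined list covered 4.61 Mb, or 35.5%. Regions numbered 38.1 per Mb in replicate 1 and 43.0 per Mb in replicate 2, a mean of 40.5 ± 3.5 (SD, n = 2), and 166 per Mb in the combined list. How the authors built the combined list is not given in the sources used here, and the lists differ in their shortest regions, so levels are compared within a list.

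At the low limit, the last region outside began at 991668 for replicate 1, at 970313 for replicate 2 and at 996044 for the combined list, and the first members began at 1016734, 1023899 and 1000144. At the high limit the last members began at 13911593, 13956677 and 13979854, and the next regions at 14015711, 14029644 and 14003376. The regions on either side of these limits measured 1273 to 2407 bp and scored 0.29 to 0.60.

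H1 regions were not spread evenly along proximal 3R but alternated between rich and poor stretches. In windows of 1 Mb from 1 to 5 Mb the replicate mean was between 7.69 and 8.36% covered. The window from 5 to 6 Mb was the poorest in every list, with 3.59% covered for replicate 1, 2.54% for replicate 2 and 19.9% for the combined list. Coverage was high again from 7 to 9 Mb, where the window from 8 to 9 Mb reached 10.1%, 11.1% and 44.0%. From 9 to 13 Mb the replicate mean lay between 4.41 and 6.07%. The window from 13 to 14 Mb closed the stretch with 7.89% for replicate 1, 13.1% for replicate 2 and 47.4% for the combined list, the highest value of replicate 2 and of the combined list.

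**Figure D1:**
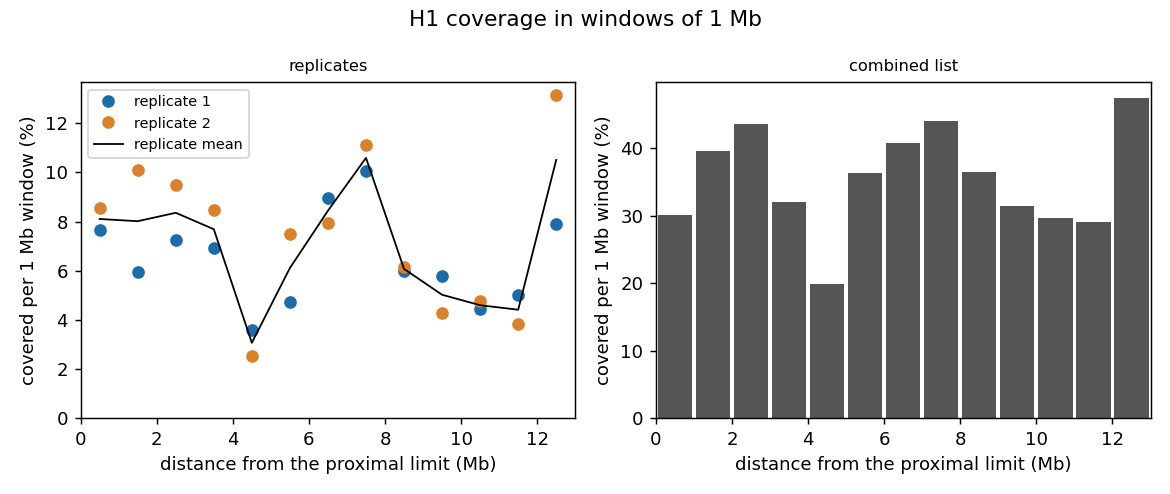
Share of sequence covered by H1 regions in 13 windows of 1 Mb, against the distance from the proximal limit at 1 Mb. Left, points are replicate 1 and replicate 2 and the line is their mean; right, bars are the combined list. All 3 lists are lowest in the window 4 to 5 Mb from the limit, at 3.59%, 2.54% and 19.9%.

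The number of regions, more than their length or score, differed between these windows. Regions per 1 Mb window ranged from 22 to 61 for replicate 1, from 14 to 74 for replicate 2 and from 105 to 208 for the combined list. The median length per window ranged only from 1457.5 to 1657 bp, from 1443 to 1725.5 bp and from 1455 to 1889 bp. The median score per window ranged from 0.50 to 0.56, from 0.55 to 0.58 and from 0.36 to 0.38. The score is the authors' own value for a region, on a scale that is not given in the sources used here, and it serves only to rank regions within a list.

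The replicates shared the poor window at 5 to 6 Mb and the rich one at 8 to 9 Mb, and differed in others. The ratio of replicate 1 to replicate 2 in covered length was lowest from 2 to 3 Mb, at 0.589, with 5.94% covered in replicate 1 and 10.1% in replicate 2. It was highest from 5 to 6 Mb, at 1.41. Replicate 1 exceeded replicate 2 in 4 of the 13 windows. In the window from 13 to 14 Mb the replicate mean was 10.5 ± 3.7% (SD, n = 2), close to the 10.6 ± 0.8% of the window from 8 to 9 Mb.

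At 100 kb the contrast was sharper. Of the 130 windows of proximal 3R, 31 were covered by at least 50% in the combined list, a share of 23.8%, compared with 16.6% of the 1189 windows of 2L, 2R, 3L, 3R and X. At the other end, 15 windows, or 11.5%, were covered by at most 10%, against 13.6% of the windows of these arms. The arms include proximal 3R itself and X, whose lower coverage is given below. In distal 3R, 29.5% of the 139 windows were covered by at least 50% and 5.04% by at most 10%, so proximal 3R had the smaller share of rich windows and the larger share of poor ones. The median window was covered to 5.73% for replicate 1, 5.03% for replicate 2 and 32.8% for the combined list, against 4.11%, 4.38% and 27.5% over the 5 arms. The 13 richest windows of a list held 29.4% of the covered length of replicate 1, 30.3% of that of replicate 2 and 19.8% of that of the combined list.

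**Figure D2:**
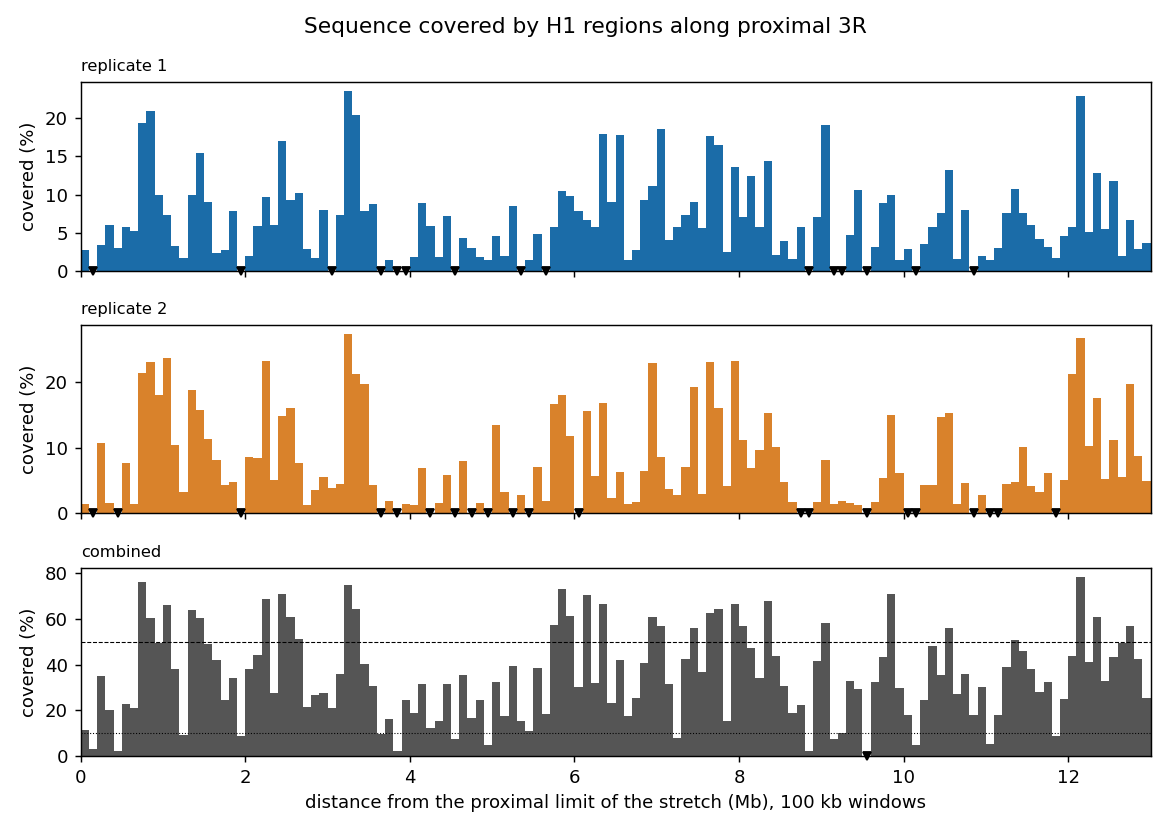
Share of sequence covered in 130 windows of 100 kb along proximal 3R, for replicate 1, replicate 2 and the combined list, against the distance from the limit at 1 Mb. Triangles mark windows with nothing covered (15, 21 and 1 windows); in the lowest panel the dashed line is 50% and the dotted line 10%. Rich windows come singly or in short runs, and the windows from 4.2 to 4.3 and from 13.1 to 13.2 Mb are among the 3 highest in every panel.

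The rich windows formed 21 separate stretches, of which 13 were a single window and the longest were 300 kb. The 300 kb stretches ran from 3.4 to 3.7 Mb, with 12.2% of replicate 1, 12.9% of replicate 2 and 60.9% of the combined list, and from 6.7 to 7.0 Mb, with 8.67%, 15.5% and 63.9%. In the combined list none of the 15 windows covered by at most 10% touched another.

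The window from 13.1 to 13.2 Mb was the most covered of the combined list, at 78.3% with 25 regions. It ranked second in both replicates, with 22.9% in replicate 1 and 26.7% in replicate 2, from 13 and 15 regions. The highest-scoring region of replicate 1 in proximal 3R, at 13153270 to 13154701 with a score of 0.81, lay in this window. The window from 4.2 to 4.3 Mb ranked first in both replicates, with 23.6% and 27.4% covered by 13 regions each, and was covered to 74.7% in the combined list. The window from 1.7 to 1.8 Mb was second in the combined list with 76.2%, where replicate 1 covered 19.4% and replicate 2 covered 21.5%.

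The next 3 windows of the combined list stood lower in the replicates. The window from 6.8 to 6.9 Mb was covered to 73% in the combined list, and to 10.5% and 18.0% in replicates 1 and 2. The one from 10.8 to 10.9 Mb was covered to 70.9%, with 9.95% and 15.0%, and the one from 3.4 to 3.5 Mb to 70.8%, with 17.1% and 14.9%. The third most covered window of replicate 1 was that from 1.8 to 1.9 Mb, at 21.0%, with 23.1% in replicate 2. The third of replicate 2 was that from 2.0 to 2.1 Mb, at 23.8%, where replicate 1 covered 7.35%, the widest difference between the replicates in any window of proximal 3R.

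Of the 13 most covered windows of each replicate, 6 were common to both, and 3 of those were also among the 13 most covered of the combined list. The matching counts for distal 3R and the 5 arms are not given here. The 6 were the windows from 1.7 to 1.9 Mb and from 4.2 to 4.4 Mb, and the single windows beginning at 8.6 and 13.1 Mb. Over these 130 windows the replicates had a Spearman's rho of 0.70 and a Pearson's r of 0.71, against rho of 0.76 over 139 windows of distal 3R and 0.69 over the 1189 windows of the 5 arms. Windows share their library and neighbouring ones are not independent, so these values describe the 2 libraries.

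**Figure D3:**
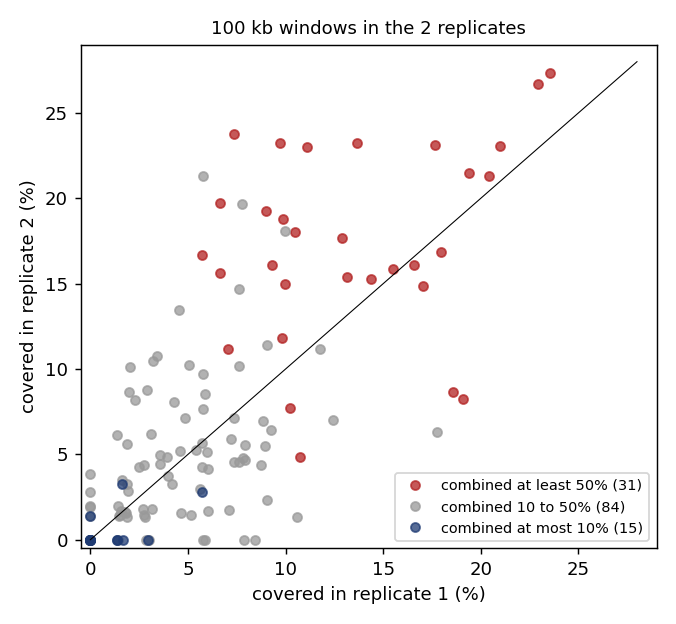
Share covered in replicate 1 (x) and replicate 2 (y) for each of 130 windows of 100 kb; colour gives the share covered in the combined list and the line marks equal values. The 31 windows covered by at least 50% in the combined list reach 23.6% and 27.4%, and 9 windows at 0 in both replicates lie on one another at the origin.

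Rich windows held more regions and longer ones. The 31 richest had a median of 24 combined regions each and a median region length of 1973 bp, and 8.39% of their regions measured 5 kb or more. The 15 poorest had a median of 4 regions, a median length of 1212 bp and none of 5 kb. Every one of the 31 held covered sequence in both replicates, with a median of 12.9% in replicate 1 and 16.8% in replicate 2. Among the 15, 9 were at 0 in replicate 1 and 12 in replicate 2. Because windows were classed by the covered share itself, these values describe the classes and are not tested.

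Windows with no covered sequence numbered 15 of 130 in replicate 1, or 11.5%, and 21 in replicate 2, or 16.2%, against 16.7% and 20.1% over the 5 arms and 5.04% and 10.8% in distal 3R. They were the same window in 9 cases, of 27 windows at 0 in either replicate, a count not given here for the 5 arms. These 9 windows began at 1.1, 2.9, 4.6, 4.8, 5.5, 9.8, 10.5, 11.1 and 11.8 Mb. The combined list covered at most 9.75% of 8 of them and 17.9% of the one at 11.8 Mb. A single window, from 10.5 to 10.6 Mb, was empty in all 3 lists.

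The poorest windows of the combined list after that one were at 1.4 to 1.5 Mb with 2.29%, 4.8 to 4.9 Mb with 2.32%, 9.8 to 9.9 Mb with 2.37%, 1.1 to 1.2 Mb with 3.28% and 5.9 to 6.0 Mb with 4.70%. The windows at 4.8, 9.8 and 1.1 Mb were at 0 in both replicates. The window at 1.4 Mb held 2 regions of replicate 1, covering 2.96%, and that at 5.9 Mb held 1, covering 1.35%, while replicate 2 had none in either.

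Neighbouring regions were unevenly spaced, with many short gaps and a few long ones. A gap is the sequence between the end of a region and the start of the next. Replicate 1 had a median gap of 9767.5 bp, replicate 2 of 7412.5 bp and the combined list of 1224 bp. The middle 50% of gaps ran from 3575.5 to 28236 bp, from 2471.25 to 19717.75 bp and from 338.5 to 3588 bp. The standard deviation was 1.58, 1.81 and 2.24 times the mean gap. The longest gap was 304 kb for replicate 1, 276 kb for replicate 2 and 141.0 kb for the combined list.

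Close neighbours were common in the combined list. Of its 2160 gaps, 972 or 45.0% were under 1 kb, against 47.6% in distal 3R, 40.0% on 2L, 38.9% on 3L and 28.7% on X. In proximal 3R the share was 8.50% in replicate 1 and 10.0% in replicate 2. Those lists hold fewer regions per Mb, so gaps and chains are given for each list and not compared between lists. The shortest gap was 3 bp, and 2 neighbouring pairs of combined regions shared sequence. When neighbours less than 1000 bp apart were joined, 66.6% of combined regions fell into chains of several regions, and 69 chains held 5 or more. The corresponding share was 16.2% in replicate 1 and 19.1% in replicate 2, with 1 and 0 chains of 5 or more.

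The longest chain of the combined list ran from 1867332 to 1914426 and joined 12 regions over 47.1 kb, with 91.3% of it covered. Replicate 1 covered 35.8% of it and replicate 2 covered 51.1%. It held the longest region of replicate 2, from 1870546 to 1876157 and 5612 bp long, and the longest chain of replicate 1, 5 regions from 1882012 to 1893612. The next chains ran from 7519124 to 7560210 with 14 regions, from 6906348 to 6945286 with 12 and from 7095252 to 7133718 with 15, and measured 41.1, 38.9 and 38.5 kb. Replicate 1 covered 35.2%, 17.1% and 19.3% of them, and replicate 2 covered 15.4%, 22.3% and 21.9%. Chains were picked out after their values had been seen.

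Long gaps took up much of the sequence. In the combined list 86 gaps measured at least 20 kb, 3.98% of its gaps, against 5.2% of the gaps on the 5 arms. Together they spanned 3.25 Mb, or 25% of proximal 3R. They were most frequent from 5 to 6 Mb, with 13, and from 1 to 2 Mb, with 11, and least from 8 to 9 and from 13 to 14 Mb, with 3 each. No region of replicate 1 reached into 74 of the 86, and none of replicate 2 into 79. Since 98.4% and 98.7% of the regions of replicates 1 and 2 overlapped a combined region, few could lie wholly in gaps of that list. These counts are therefore no measure of agreement between the replicates, and the same counts for the 5 arms are not given here.

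The longest gap of the combined list ran from 10467929 to 10608903, or 141.0 kb. It was followed by 8221811 to 8325545 with 103.7 kb, 4822717 to 4908109 with 85.4 kb and 5157657 to 5234223 with 76.6 kb. The next were 9789985 to 9862263 with 72.3 kb, 1385991 to 1456543 with 70.6 kb, 12025477 to 12094995 with 69.5 kb and 1103265 to 1169673 with 66.4 kb. In 6 of these 8 gaps neither replicate had a region, a count with the limit given above for all 86. Replicate 1 alone had 2 regions that lay wholly or partly in the 70.6 kb gap, covering 2.12% of it, and part of 1 region in the 103.7 kb gap.

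In the replicates, gaps of at least 100 kb numbered 27 in replicate 1 and 30 in replicate 2, and spanned 32.0% and 37.1% of proximal 3R. Of these, 24 in each replicate overlapped such a gap of the other. With gaps spanning these shares, overlap can come from placement alone, which was not tested. The matching counts for distal 3R and the 5 arms are not given here. The longest gap of replicate 1 ran from 4794028 to 5098050, or 304 kb, and the second from 4545835 to 4792638, or 247 kb, so that 1 region stood between them. In each of them 3 regions of replicate 2 lay wholly or partly, covering 1.11% and 1.78%. The combined list covered 15.1% and 16.0% of them, with 32 and 29 regions counted in the same way. From 4.6 to 5.1 Mb, a stretch of 500 kb chosen after these values were seen, replicate 1 covered 0.650%, replicate 2 covered 0.943% and the combined list 14.3%.

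The longest gaps of replicate 2 lay elsewhere. They ran from 9695354 to 9971394 with 276 kb, from 10996703 to 11213673 with 217 kb and from 10442710 to 10651460 with 209 kb. Replicate 1 reached into them with 4, 3 and 5 regions and covered 2.59%, 2.20% and 3.53%. The third gap of replicate 1, from 10099294 to 10316968 with 218 kb, was reached by 2 regions of replicate 2, covering 1.52%.

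**Figure D4:**
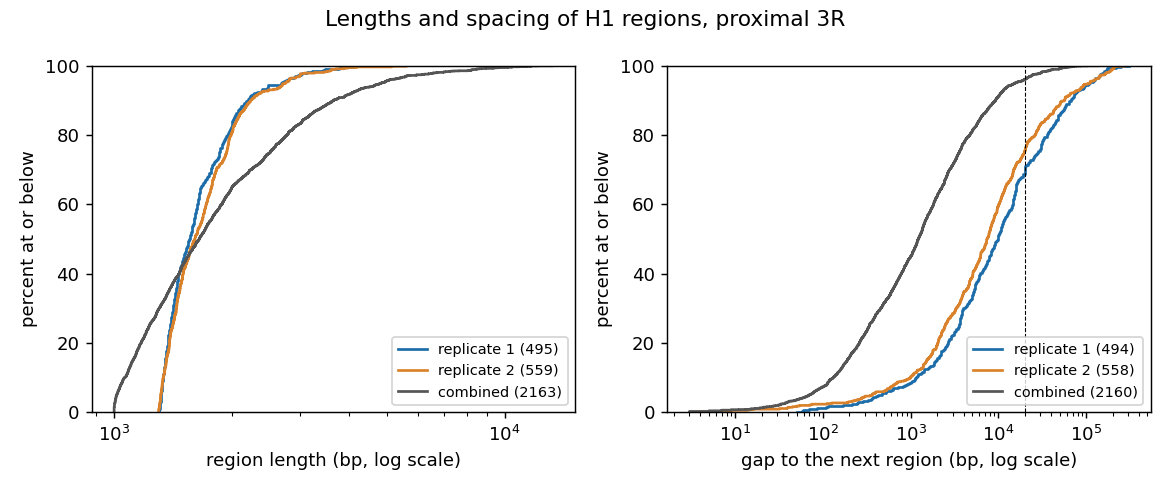
Cumulative distributions of region length (left) and of the gap to the next region (right) in proximal 3R, on log axes, for replicate 1, replicate 2 and the combined list, with the number of values in the legend; the dashed line marks 20 kb. Median gaps are 9767.5, 7412.5 and 1224 bp, and lengths start at 1303, 1301 and 1001 bp.

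Regions were short and crowded near the smallest length of their list, here as over all sequences. Median lengths were 1557 bp for replicate 1, 1613 bp for replicate 2 and 1653 bp for the combined list, against 1542, 1579 and 1625 bp over all sequences. The shortest members measured 1303, 1301 and 1001 bp. Within 100 bp of the shortest were 27.5%, 23.6% and 13.4% of members, against 27.2%, 23.8% and 15.3% over all sequences. Lengths of at least 2000 bp were reached by 17.8% and 19.5% of members in the replicates and 35.4% in the combined list. Over all sequences these shares were 16.4%, 20.1% and 32.1%. At least 5 kb was reached by 0 members of replicate 1, 2 of replicate 2 and 94 of the combined list, or 4.35%. Of all combined regions 4.14% reached it. In the combined list all 2163 starts were even numbers and all lengths odd, whereas 261 of 495 starts in replicate 1 and 281 of 559 in replicate 2 were even, so positions of the combined list lay on a grid of 2 bp.

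The longest regions of proximal 3R were domains of 10 kb and more in the combined list, each overlapped by both replicates. Regions of such length have more room for overlap, and the share over all sequences is not given here for this length. The longest ran from 9008908 to 9022226, measured 13319 bp and scored 0.41, and replicate 1 covered 20.5% and replicate 2 covered 35.8% of it. The region from 4368514 to 4380682 measured 12169 bp and was covered to 28.1% and 45.9%. The region from 4238710 to 4250394 measured 11685 bp and was covered to 26.2% and 69.6%. Both lie in the rich stretch from 4.2 to 4.4 Mb, as does the region from 4271446 to 4282378, which measured 10933 bp with the highest score of these 10 regions, 0.48.

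The other 6 of the 10 longest began at 7969468, 2431982, 6924196, 8422376, 10811956 and 12403678, and measured 11665, 11571, 11363, 10471, 10437 and 10367 bp. Over all 10, replicate 1 covered 13.7 to 58.6% and replicate 2 covered 16.5 to 69.6% of each, and scores were 0.39 to 0.48. In the replicates the longest regions were shorter. Those of replicate 1 measured 4753, 4084 and 3888 bp and began at 13595284, 4518474 and 1882012. Those of replicate 2 measured 5612, 5136 and 4180 bp and began at 1870546, 4238890 and 3900681. Of these 6, the region at 1882012 and the region at 1870546 also overlapped the other replicate.

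The 5 highest scores of the combined list sat on regions that neither replicate held. Of all combined members 63.9% also overlapped neither replicate, as did 91.0% of the 919 members of 1 to 1.5 kb. All of these regions but the one of 2225 bp belong to that length class, so the lack of overlap does not set them apart. The highest, 2.10, belonged to a region of 1003 bp from 10928374 to 10929376, the second, 1.45, to one of 2225 bp from 1272272 to 1274496, and the third, 1.33, to one of 1099 bp from 8325546 to 8326644. The third is the first region after the gap of 103.7 kb. All other 2160 members scored at most 0.65, and 90.3% of members scored from 0.3 to 0.5. The next highest, 0.65 from 4534778 to 4535920 and 0.62 from 1849576 to 1850576, measured 1143 and 1001 bp and were also without a region of either replicate. The highest scores of replicate 1 were 0.81, 0.69 and 0.68 and those of replicate 2 were 0.76, 0.75 and 0.75. In both replicates 2 of the 3 regions concerned overlapped the other replicate.

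Longer regions tended to score higher within a list, with Spearman's rho between length and score of 0.35 over 495 regions of replicate 1, 0.34 over 559 of replicate 2 and 0.21 over 2163 of the combined list. These are values across regions of one library or list, not across replicates.

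Most regions of a replicate had no partner in the other. In replicate 1, 166 of 495 regions shared at least 1 bp with a region of replicate 2, a share of 33.5% (95% Wilson interval 29.5 to 37.8%), against 31.5% over all sequences. In replicate 2, 161 of 559 regions overlapped replicate 1, a share of 28.8% (25.2 to 32.7%), against 25.3%. The intervals cover counting of regions only, and both include the value over all sequences. They are not a test, since neighbouring regions are not independent. In distal 3R the shares were 39.4% in replicate 1 and 34.0% in replicate 2. By length, 186 kb were covered in both replicates, which is 11.4% of the 1634 kb covered in either, 22.1% of the length of replicate 1 and 19.0% of that of replicate 2. The product of the 2 covered shares is 0.487% of the stretch, and the sequence covered in both is 1.43%, or 2.94 times that product. Placement of the same rich and poor stretches in both replicates enters this ratio.

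Recurring regions were slightly longer and scored slightly higher than the others. In replicate 1 the median length was 1623.5 bp for regions with a partner and 1522 bp for those without, and the median score was 0.55 and 0.52. In replicate 2 the lengths were 1688 and 1570.5 bp and the scores 0.58 and 0.56. A longer region also has more room to meet another. Regions without a partner often lay near one: the median distance to the nearest region of the other replicate was 5340 bp for 329 regions of replicate 1 and 5319.5 bp for 398 of replicate 2, and 16.4% and 16.6% of them were within 1 kb of it. More than 20 kb separated 19.1% and 13.8%.

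Nearly all replicate regions reappeared in the combined list, 487 of 495 or 98.4% in replicate 1 and 552 of 559 or 98.7% in replicate 2. Over all sequences the shares were close to these, 98.6% and 97.9%. Of the 2163 combined regions, 175 overlapped both replicates, a share of 8.09% (95% Wilson interval 7.01 to 9.32%). The share was 6.71% over all sequences and 11.2% in distal 3R. Neither replicate overlapped 1382, or 63.9% (61.8 to 65.9%), against 65.7% over all sequences and 57.9% in distal 3R. The intervals are not a test, since neighbouring regions are not independent and the values over all sequences include these members. A further 273 or 12.6% overlapped replicate 1 alone and 333 or 15.4% replicate 2 alone, against 11.6% and 16.0% over all sequences. The combined list bears on the same libraries, so this overlap is not independent of the replicates.

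Overlap with the replicates followed the length of a combined region. A longer region has more room to meet a replicate region, and the combined list bears on the same libraries. The shares per length class are not given here for all sequences or distal 3R, so they are no trait of this stretch. Of 919 members of 1 to 1.5 kb, 1 overlapped both replicates and 91.0% neither. Of 404 members of 2 to 3 kb, 9.90% overlapped both and 42.8% neither. Of 82 members of 5 to 10 kb, 51.2% overlapped both and 7.32% neither, and each of the 12 members of at least 10 kb overlapped both. The median length was 3977 bp for regions found in both replicates, 2197 and 2329 bp for those in replicate 1 or replicate 2 alone and 1376 bp for those in neither. Their median scores were 0.43, 0.38, 0.38 and 0.36. Over the 175 regions found in both, Spearman's rho between the highest scores of the replicates was 0.27.

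**Figure D5:**
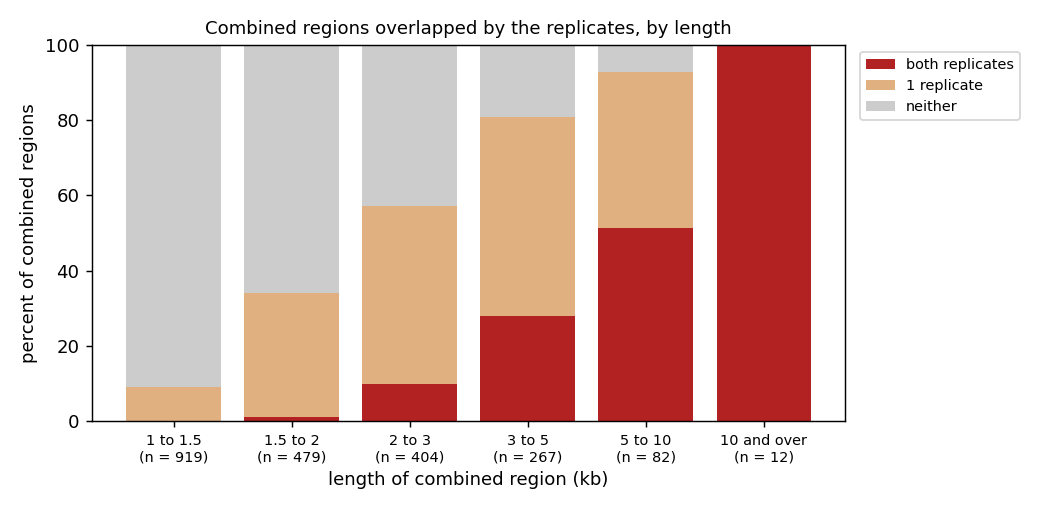
Combined regions of proximal 3R by length class, with the share overlapped by both replicates, by 1 replicate and by neither; the number of regions is under each bar. The share overlapped by both is 9.90% at 2 to 3 kb, 51.2% at 5 to 10 kb and 100% at 10 kb and over.

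Compared with distal 3R, which runs from 14 Mb to the telomere, proximal 3R was covered less in every list. Coverage was 6.47% in proximal and 8.17% in distal 3R in replicate 1, 7.53% and 9.59% in replicate 2, and 35.5% and 39.9% in the combined list. The difference between proximal and distal was -1.88 ± 0.26 percentage points (SD, n = 2), lower in 2 of 2 replicates. An exact sign-flip permutation test over the replicates gave a two-sided p of 0.5, which is the smallest that 2 replicates allow, so the design cannot reach a threshold of 0.05.

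The lists differed in how proximal and distal 3R came apart. In the replicates the number of regions was lower, with 38.1 per Mb in proximal and 46.9 in distal 3R in replicate 1, and 43.0 and 53.3 in replicate 2, while median lengths were 1557 and 1579.5 bp in replicate 1 and 1613 and 1594 bp in replicate 2. In the combined list the number was about equal, 166 per Mb in proximal and 163 in distal 3R, and regions were shorter, with medians of 1653 and 1801 bp. Regions of at least 5 kb were 4.35% of combined members in proximal 3R and 8.18% in distal 3R, and the longest measured 13319 and 20555 bp. Median gaps were longer in proximal 3R, 9767.5 bp against 7987 bp in distal 3R in replicate 1 and 7412.5 bp against 5299 bp in replicate 2. These descriptions have no test beyond that above.

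Proximal 3R was covered more in each list than the arms 2L, 3L and X. These arms were taken whole, while proximal 3R leaves out the first 1 Mb of its arm. The arm 2R was not compared in this way. The arm 2L was covered to 5.50% for replicate 1, 6.77% for replicate 2 and 32.7% for the combined list, and 3L to 4.74%, 6.02% and 29.9%, a comparison without a test. The first 1 Mb of 3R, next to the centromere and outside the stretch described, held 19, 23 and 109 regions in replicate 1, replicate 2 and the combined list.

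For both homeotic clusters a stretch of 300 kb was taken by round positions from the generally known Release 5 map, since no annotation of that release was used here. The stretch in the Antennapedia complex, from 2500001 to 2800000, was covered to 4.68% for replicate 1, 7.99% for replicate 2 and 38.6% for the combined list, with 8, 16 and 62 regions. The stretch in the bithorax complex, from 12500001 to 12800000, was covered to 4.45%, 4.54% and 32.8%, with 9, 9 and 56 regions. Replicate 1 was thus below its 6.47% for proximal 3R in both clusters, replicate 2 was below its 7.53% in the bithorax stretch and above it in the Antennapedia stretch, and the combined list was on either side of its 35.5%. Neither stretch was empty, and the longest gap between combined regions was 20363 bp in the first and 20221 bp in the second.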

How the data were processed

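The authors deposited lists of enriched regions, with a start, an end and a score per region, on FlyBase Release 5 per the file headers. The score is the authors' deposited value, and its scale is not given in the sources used here. The submitters' processing notes list Bowtie 0.12.7 without saying what it did. Not given in the sources used here are the caller of the regions, its threshold, whether input was subtracted, the depth and how the combined list was made. Another threshold would change the number of regions.

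Members were rows of 3R with a start between 1 and 14 Mb. Covered length counts each base once, so covered shares include the parts of regions inside the limits. Overlap meant at least 1 bp shared, and shares carry 95% Wilson intervals. Windows were non-overlapping and began at multiples of 100 kb or 1 Mb. The functions for coverage, gaps, overlap and joining were tested on simulated data. Only the ChIP replicates gave a mean and SD. Regions named are the 10 longest and 5 highest-scoring of the combined list and 3 of each in each replicate, with the 8 and 3 longest gaps and the 6 and 3 most covered windows, and the 6 least covered windows of the combined list. Members, lists and rules were chosen with earlier results of these data known. Genes and base sequences of regions are not reported here, because no genome or annotation of Release 5 was used; the gene table used for names is of Release 6 and was not matched by position. Values were computed in Python 3.11.15 with pandas 2.3.3 and numpy 2.4.6, intervals with scipy 1.17.1 and figures with matplotlib 3.10.9.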

Additional observations from a re-analysis of the deposited data

How the results depend on the processing

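The lower coverage of proximal than of distal 3R kept its direction in both filtered runs. The difference was -1.46 percentage points with the higher-scoring regions alone (from the median score of a list upward) and -1.06 with regions of at least 2000 bp. Leaving out a replicate gave the value of the other, from -2.07 to -1.69, which restates the differences of the 2 replicates and is no further check. Other values moved with what was let in. With the higher-scoring regions alone, proximal 3R held 17.5 regions per Mb in the replicate mean and was covered to 3.32%, the median length was 1733.75 bp, 24.2% of replicate regions had a partner, against 31.2% in the main analysis, the median combined gap was 4581 bp, 151 combined gaps reached 20 kb and 3 windows of 100 kb were covered by at least 50%. With regions of at least 2000 bp these were 7.58 per Mb, 1.89%, 15.4% with a partner, a median gap of 3851 bp and 8 windows. Of combined regions, 2.35% then overlapped both replicates. The length limit held for the replicates too, leaving 88 regions of replicate 1 and 109 of replicate 2. The 2.35% is therefore not the share of long combined regions that overlap the full replicate lists. Of combined regions of 2000 to 3000 bp, 9.90% overlapped both full lists, and longer classes had higher shares. Joining regions less than 1000 bp apart gave 36.8 per Mb, a median length of 1636 bp and a median gap of 3202 bp. Requiring 50% of both regions left 18.1% of replicate regions with a partner and 2.22% of combined regions overlapping both. The score and length limits left fewer regions, joining merged neighbours, and the 50% rule kept every region but asked for more overlap. Why each value moved was not tested. Narrower limits of 2 to 13 Mb gave 38.2 regions per Mb, 6.58% covered and a median gap of 1237 bp. Windows shifted by 50 kb gave 33 covered by at least 50%, in place of 31. Windows of 50 kb covered by at least 50% added up to the length of 35 windows of 100 kb. No paired analysis was possible because every value comes from the H1 ChIP group alone, with no second group of samples to pair it with; the proximal and distal values of a library were set against each other within that library. Without the depth of the libraries, numbers of regions cannot be set between lists.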
